A study of Mus musculus with 53 samples.

Results

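Expression in NIH-3T3 cells that carried an empty vector was compared between day 10 (d10) and day 4 (d4) after adipogenic stimulation, from 3 arrays titled vector d10 and 7 arrays titled vector d4, 10 of the 53 arrays of the series. NIH-3T3 is an immortalised line of mouse embryonic fibroblasts, transduced here with an empty vector, with PPARg2, a lipid-activated nuclear receptor of adipocytes, or with EBF1, a transcription factor known from B cell development. All cells, the vector cells included, received hormones that start adipocyte differentiation. Total RNA of days 0, 2, 4 and 10 (d0, d2, d4, d10) was hybridised to Affymetrix MG_U74Av2 arrays. The groups used here were vector d4 (n = 7) and vector d10 (n = 3), with vector d0 and vector d2 (n = 4 each), PPARg d4 (n = 7), PPARg d10 (n = 3), EBF1 d4 (n = 7) and EBF1 d10 (n = 2) beside them. The hormones are not named in the labels, nor is how long the cells were kept in them. The labels speak of 7 independent stimulations, but nothing ties an array to a culture or to a clone, so p values measure the spread between these arrays.

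Preadipocytes turn into fat cells through a relay of transcription factors. Cebpb and Cebpd rise early after hormones, and they induce Pparg and Cebpa, which switch on the genes of fat storage. Fibroblasts such as NIH-3T3 make little Pparg of their own and are known as poor adipocyte formers unless such a factor is supplied. Glucocorticoids and agents that raise cAMP, common parts of adipogenic mixtures, also induce many genes directly, among them acute phase proteins. The comparison sets the early and the late day against each other in cells that were given no such factor.

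The arrays differed in session, which was read from dates in the comment field of their experiment files and not from the scan dates. Of the d4 arrays, 2 came from session 1, 2 from session 2 and 3 (replicates 5, 6 and 7) from session 3, which also held every d10 array, so for most genes named the log2 difference over all 7 d4 arrays is followed by that over the 3 of session 3. Array medians ran from 147 to 164 at d4 and from 149.8 to 164 at d10, and 3' actin probe sets read 1.23 to 1.41 times the 5' ones at d4 and 1.30 to 1.59 times at d10. Between arrays of vector cells the mean absolute log2 difference was smallest for d4 replicates 5 and 6 (0.0992) and for d4 replicates 1 and 4 (0.116), the latter from different sessions. Array d10 replicate 2 lay nearest to d10 replicate 3 (0.202), but closer to d4 replicates 4 and 1 (0.205 and 0.212) than to d10 replicate 1 (0.241). Of 11 fibroblast markers all 11 were above the pooled median on at least 1 d4 and 1 d10 array. Among markers of macrophages, endothelium, skeletal muscle, bone, B lymphocytes and epithelium 1 of 46 tested genes passed the test described next (Myod1, higher at d10 by 0.66 ± 0.17 on the log2 scale). In bulk RNA, fewer cells of a type and less RNA per cell cannot be told apart.

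Expression changed broadly between the days. Intensities were set to a floor of 54.5, taken to log2 and compared in 1 limma model of all 53 arrays, and 1399 of 7619 probe sets passed at an adjusted p of 0.05 (18.4%), 879 of them higher (11.5%) and 520 lower (6.83%) at d10. With quantile scaling 820 were higher and 697 lower, so the share of higher ones among those past the test went from 62.8% to 54.1%. With no filter on dim probe sets the count was 1490. Counted once per gene, 676 of 5766 genes were higher (11.7%) and 422 lower (7.32%), with a median log2 difference of 0.012 over all genes. The d10 arrays lay wholly above the d4 arrays for 445 genes (7.72%) and wholly below for 336 (5.83%). Against the 3 d4 arrays of session 3 alone 849 probe sets passed, 451 higher and 398 lower, and these included 409 of the 879 rises (46.5%) and 324 of the 520 falls (62.3%). Per gene, 347 were higher (6.02%) and 316 lower (5.48%) within session 3. With session as a block in the full model 823 probe sets were higher and 567 lower.

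**Figure D1:**
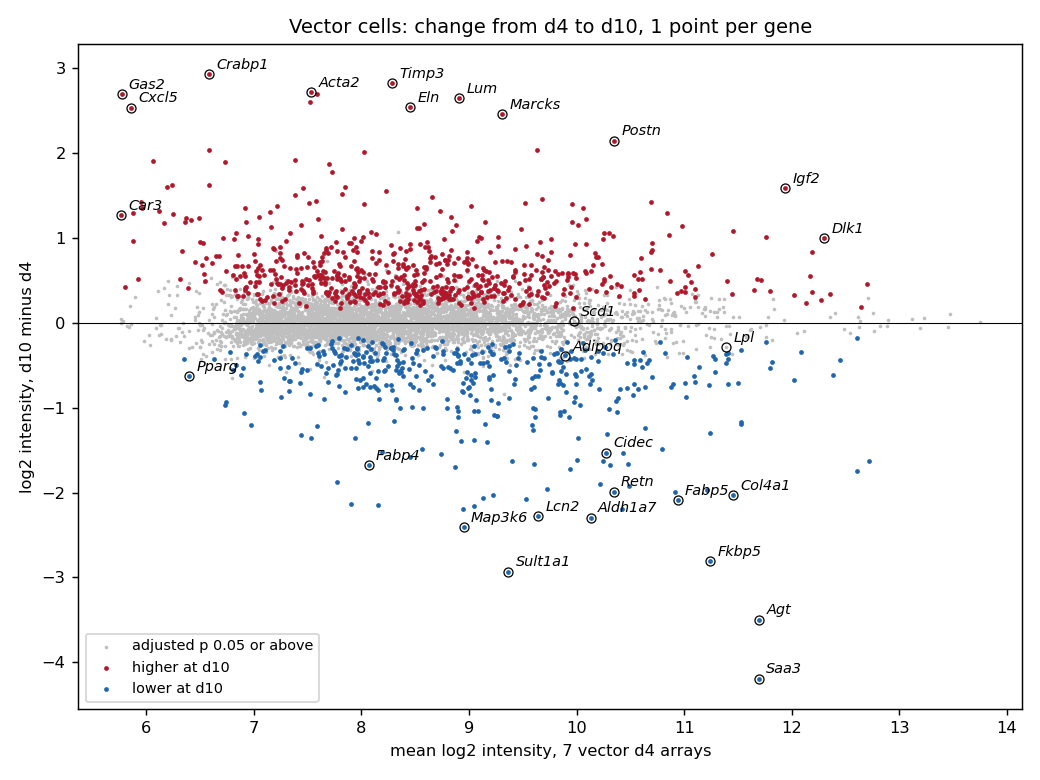
Difference between d10 and d4 in vector cells (log2, vertical axis) against the mean log2 intensity of the 7 vector d4 arrays (horizontal axis), with 1 point per tested gene. The 676 genes higher at d10 are red, the 422 lower are blue and the rest grey; the ringed genes run from Saa3 at -4.19 to Crabp1 at 2.93.

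The acute phase genes had the lowest median difference of all lists examined. These genes encode secreted proteins that rise in inflammation and after glucocorticoids. Of 12 tested members 8 fell and 2 rose, with a median log2 difference of -1.48, against 7.32% lower and 11.7% higher over all genes. Saa3, Lcn2, Saa2, Orm1, Hp, Serpina3n, Cp and Orm2 were the 8 that fell, and Ptx3 and C1ra were the 2 that rose.

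Saa3, a serum amyloid A apolipoprotein made by many cells outside the liver, read from 2216 to 4879 on the d4 arrays (median 3110) and 179.6, 173 and 193 on the d10 arrays. All d10 arrays thus lay far below all d4 arrays, an 18.3-fold fall (log2 difference -4.19 ± 0.29, adjusted p = 6e-16; -4.66 within session 3). Lcn2, which withholds iron from bacteria by binding their siderophores, read from 373 to 2101 at d4 (median 439) and 134, 185 and 180.2 at d10. The d4 arrays of session 3 (1815 to 2101) stood apart from the other 4 (373 to 439), so the fall was -2.28 ± 0.43 over all arrays (adjusted p = 7e-05), -3.59 within session 3 and -3.13 in the session block fit. A second Lcn2 probe set did not pass (-0.53). Saa2, a serum amyloid A of the liver acute phase, read from 392 to 997 at d4 (median 504) and 165, 125 and 152 at d10, without overlap (log2 difference -2.03 ± 0.32; -2.64 within session 3). Its closest relatives share sequence with it, and a second Saa2 probe set did not pass (-0.02), so which copy was measured is uncertain. Ptx3, a secreted pattern recognition protein of the same list, went the other way, from a d4 range of 126 to 334 (median 159) to 1551, 1072 and 1172 at d10 (log2 difference 2.70 ± 0.32, adjusted p = 4.1e-09; 2.09 within session 3).

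Promoters of 3 acute phase genes that fell are shown because most of those genes held the same short motif. The 250 bases before the annotated start (RefSeq, GRCm38.p6) were searched on both strands for 6 motifs chosen after the results were known: the C/EBP motif TTGCNNAA, the glucocorticoid receptor motif (GNACA, then TGTNC after a gap of 3 bases), the serum response factor motif CArG, the NF-kB motif (GGG, then CC after a gap of 5), the E-box CACGTG and the PPAR motif (AGGTCA repeated after a gap of 1). No motif was taken out for overlapping another. The C/EBP letters stood in 5 of the 6 falling acute phase genes with a promoter in the table (83.3%). Of all tested acute phase genes with a promoter 6 of 8 held them (75%), the risen Ptx3 among these. They stood in 13.1% of the promoters of all genes that fell, in 9.72% of those of all tested genes and in 10.8% of all promoters in the table. Saa3 (chr7:46715677-46715926, minus strand), Saa2 (chr7:46751583-46751832, plus strand) and Lcn2 (chr2:32387740-32387989, minus strand) are printed 5' to 3' with these letters in capitals (in Saa3 they read on the opposite strand), which begin 99, 183 and 216 bases before the start site.
Saa3: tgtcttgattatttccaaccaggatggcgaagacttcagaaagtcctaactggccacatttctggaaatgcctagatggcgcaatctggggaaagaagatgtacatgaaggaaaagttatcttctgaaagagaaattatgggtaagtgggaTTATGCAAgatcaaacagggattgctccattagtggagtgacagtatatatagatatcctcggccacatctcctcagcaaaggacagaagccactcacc
Saa2: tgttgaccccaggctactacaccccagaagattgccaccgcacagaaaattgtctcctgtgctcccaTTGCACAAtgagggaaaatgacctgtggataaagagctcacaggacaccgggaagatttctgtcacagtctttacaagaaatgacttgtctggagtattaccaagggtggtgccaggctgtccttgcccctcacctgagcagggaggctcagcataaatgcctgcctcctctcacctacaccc
Lcn2: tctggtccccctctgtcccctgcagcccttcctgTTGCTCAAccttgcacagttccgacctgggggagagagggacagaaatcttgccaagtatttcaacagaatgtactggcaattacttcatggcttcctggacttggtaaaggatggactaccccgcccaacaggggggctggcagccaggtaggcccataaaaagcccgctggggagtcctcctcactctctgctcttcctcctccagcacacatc
A match describes the letters and is not evidence of a bound site. The NF-kB letters were in 4 of the 6 falling acute phase genes (66.7%) and in 67.2% of the promoters of all tested genes. The PPAR motif was in none of these 6 falling genes.

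Most of the glucocorticoid and cAMP response genes fell and none rose. Of 21 tested members 13 fell (7.32% of all genes), with a median log2 difference of -1.10, and all 13 had d10 arrays wholly below the d4 arrays, where 5.83% of all genes had this. The same number, 13, fell within session 3. Lcn2 is counted in both this list and the acute phase list. In the d10 arrays the median distance of the 21 genes from the d4 mean was -1.16, -1.11 and -1.06 (log2) for replicates 1, 2 and 3, so the 3 arrays lay close together.

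Fkbp5, a co-chaperone that damps the glucocorticoid receptor and is one of its targets, read from 2018 to 2877 at d4 (median 2372) and 307, 369.6 and 361 at d10. This was a 7.01-fold fall with no overlap (log2 difference -2.81 ± 0.10, adjusted p = 8.1e-27; -2.87 within session 3). Sult1a1, a phenol sulfotransferase, read from 494 to 931 at d4 (median 616) and 73.3, 74.5 and 118 at d10, again without overlap (log2 difference -2.93 ± 0.21, adjusted p = 2.3e-15; -3.00 within session 3). Unlike Fkbp5, Sult1a1 was under the floor on all 4 vector d0 and all 4 vector d2 arrays. Dusp1, a phosphatase that switches off MAP kinases, fell by a log2 of 1.96 ± 0.21 (-1.99 within session 3), from a median of 770.4 to between 194 and 245. Ddit4, an inhibitor of the growth kinase mTORC1, read from 897 to 1365 at d4 (median 1281) and 323, 279.6 and 362 at d10 (log2 difference -1.90 ± 0.13; -1.96 within session 3). Cdkn1a, the cell cycle inhibitor p21, read from 465 to 769 at d4 (median 515) and 139, 145 and 119 at d10 (log2 difference -2.07 ± 0.16; -1.89 within session 3), and its second probe set fell less (-0.55). The glucocorticoid receptor letters were in 2 of these 13 promoters (Mt1 and Sgk1, 15.4%), in 1.68% of those of all genes that fell and in 0.324% of those of all tested genes. The promoter of Mt1, a metal-binding metallothionein that fell by a log2 of 1.63 ± 0.14, is shown as an example (chr8:94178839-94179088, plus strand, letters 94 bases before the start).
Mt1: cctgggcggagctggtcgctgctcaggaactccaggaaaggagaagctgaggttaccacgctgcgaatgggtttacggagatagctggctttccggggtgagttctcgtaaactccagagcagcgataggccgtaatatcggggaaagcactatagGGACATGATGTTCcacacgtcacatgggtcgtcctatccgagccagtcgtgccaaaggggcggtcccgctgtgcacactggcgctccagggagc
No match in such a short window says nothing of sites farther away.

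Other large falls came from several lists or from none. Agt, the precursor of angiotensin and a product of fat cells, read from 2575 to 4115 at d4 (median 3285) and 261, 319 and 304 at d10, an 11.3-fold fall with no overlap (log2 difference -3.50 ± 0.15, adjusted p = 4.9e-23; -3.66 within session 3). Aldh1a7, an aldehyde dehydrogenase, read from 715 to 1609 at d4 (median 1146) and 314, 232 and 165 at d10 (log2 difference -2.30 ± 0.24; -2.72 within session 3). Map3k6, a stress kinase, Xdh, an enzyme of purine breakdown, and Adarb1, an RNA-editing deaminase, fell to similar extents, each without overlap. Their log2 differences were -2.41 ± 0.18, -2.16 ± 0.20 and -2.20 ± 0.17, and within session 3 -2.33, -2.11 and -2.44. Wfdc21 was below the floor on all 3 d10 arrays (35.3, 43.4 and 39.8) after a d4 range of 193 to 328, so it was at least 4.40-fold lower. Ifi204, an interferon-induced DNA sensor, fell by a log2 of 2.19 ± 0.16 (-2.32 within session 3), but a second probe set did not (0.10), and the gene has near-identical relatives that a probe set may share. Myc, the growth-promoting transcription factor, fell from a d4 median of 353 to 122, 131 and 99.3 (log2 difference -1.58 ± 0.12; -1.60 within session 3).

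**Figure D2:**
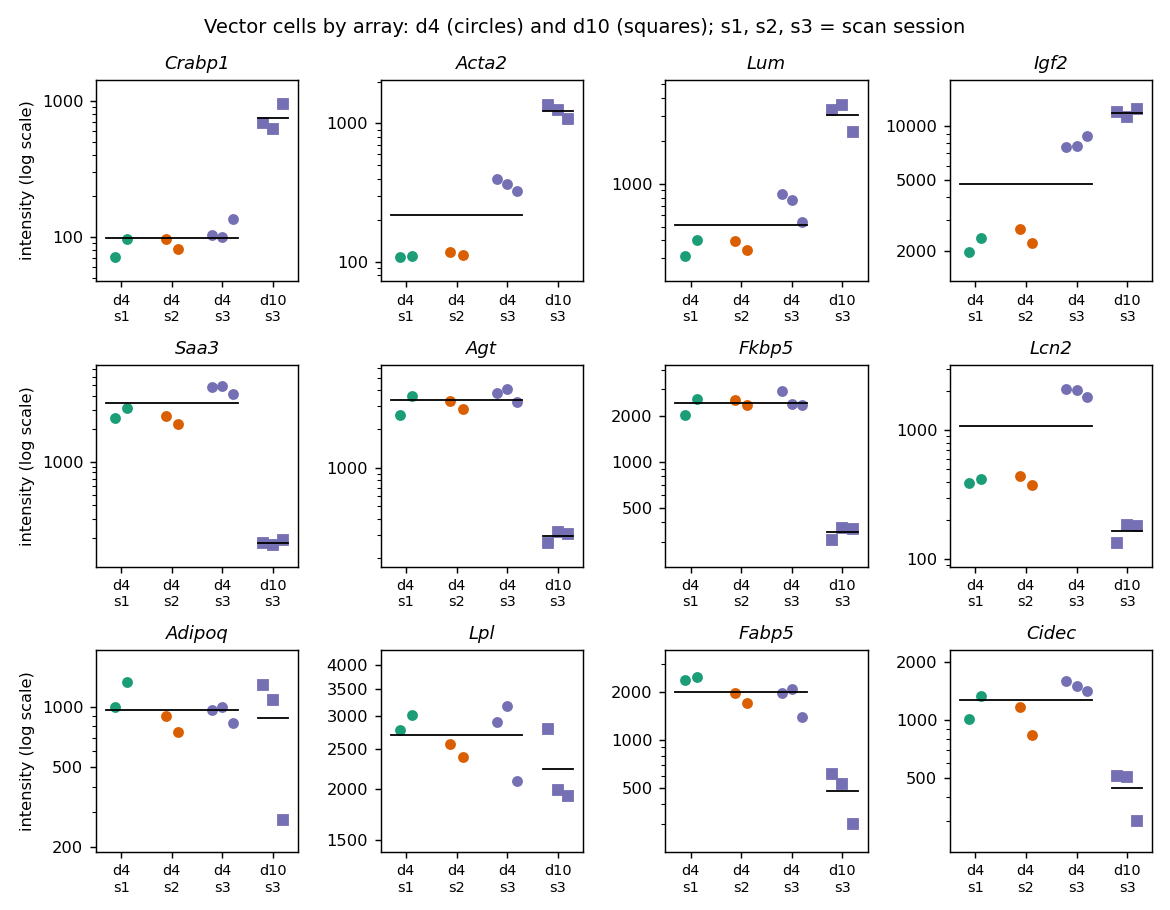
Intensity of 12 genes on each vector array (log scale), with d4 arrays as circles by session (s1, s2, s3) and d10 arrays as squares. Horizontal lines are group means. Saa3, Agt, Fkbp5, Fabp5 and Cidec at d10 lie below every d4 array, Adipoq and Lpl overlap, and the d4 arrays of session 3 stand nearer to d10 for Acta2 and Igf2 and farther from it for Lcn2.

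Genes that mark fat cells did not move as 1 group. Of 15 tested hormones and lipid carriers of adipocytes 4 fell and 2 rose, and of 24 genes of lipid droplets, lipid synthesis and lipolysis 9 fell and 1 rose (medians -0.21 and -0.12 on the log2 scale), where 7.32% of all genes fell and 11.7% rose. Agt, described above, Fabp4, Fabp5 and Retn were the 4 that fell. Within session 3 these counts were 4 and 1, and 8 and 0. The best known marker, adiponectin, did not pass the test. A description of d10 as the loss of a partial adipocyte state thus holds for some of its genes only. Of the 4 hormones and carriers that fell, Agt and Retn also fell with PPARg (log2 change -2.70 and -2.12) and with EBF1 (-2.71 and -1.67). Over all arrays the difference from the vector change passed against both for Agt, Fabp4 and Fabp5, and against neither for Retn.

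Adipoq, the adipocyte hormone adiponectin, read from 751 to 1328 at d4 (median 959) and 1281, 1085 and 273 at d10. Replicates 1 and 2 of d10 lay inside the d4 range and replicate 3 far below it, which gave a log2 difference of -0.39 ± 0.22 (adjusted p = 0.27; -0.35 within session 3), 0.31 without replicate 3, and -0.68 and -0.80, both past the test, without replicate 2 or 1. Lpl, which releases fatty acids from circulating lipoproteins, read from 2089 to 3184 at d4 (median 2780) and 2801, 1984 and 1920 at d10, with overlap in replicate 1 (log2 difference -0.28 ± 0.13, adjusted p = 0.12; -0.29 within session 3). With quantile scaling the same probe set passed (-0.40, adjusted p = 0.012). A second Lpl probe set passed without that scaling and fell by 0.87 on the log2 scale. The carriers moved more clearly.

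Fabp4, the fatty acid carrier of fat cells, read from 172 to 619 at d4 (median 226) and 96.0, 113 and 28.1 at d10, where replicate 3 was under the floor. No d10 array reached the lowest d4 array (log2 difference -1.68 ± 0.35, adjusted p = 0.00032; -1.78 within session 3). Fabp5, a related carrier, read from 1399 to 2461 at d4 (median 1969) and 614, 534 and 298 at d10, a 4.26-fold fall (log2 difference -2.09, adjusted p = 3.9e-13; -1.96 within session 3). Retn, the hormone resistin, read from 974 to 1568 at d4 (median 1361) and 286, 399 and 305 at d10 and fell by a log2 of 1.99 ± 0.15 (-2.02 within session 3) with no overlap. The 2 members that rose, Apoc1 and Apod, are lipoprotein components that other cells also make.

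The lipid droplet proteins Cidec, Plin2 and Plin4 fell, and the desaturase Scd1 did not pass. Cidec, which lets droplets fuse and grow, read from 834 to 1594 at d4 (median 1330) and 514, 508 and 299.9 at d10, all below the d4 range (log2 difference -1.53 ± 0.17, adjusted p = 6.9e-10; -1.81 within session 3). Plin2, a droplet coat protein of most cells, read from 1630 to 2292 at d4 (median 2057) and 1455, 1107 and 1229 at d10, a smaller fall without overlap (-0.71 ± 0.15, adjusted p = 0.00034; -0.79 within session 3). Plin4, a droplet coat protein of fat cells, fell by a log2 of 0.90 ± 0.17 (-0.81 within session 3). Lpin1, the phosphatidate phosphatase of triglyceride synthesis, read from 390.4 to 595 at d4 (median 435) and 152, 142 and 139 at d10 (log2 difference -1.70 ± 0.17; -1.56 within session 3). Pcx, pyruvate carboxylase, which supplies citrate for lipid synthesis, fell by a log2 of 1.63 ± 0.14 (-1.77 within session 3), while a second Pcx probe set did not pass (-0.12). Scd1, the stearoyl-CoA desaturase, read from 870.3 to 1360 at d4 (median 939) and 1442, 1124 and 650.3 at d10, on both sides of the d4 range (log2 difference 0.02 ± 0.18, adjusted p = 0.97; 0.16 within session 3). Of these 24 lipid genes 15 had their lowest d10 value in replicate 3, whose median distance from the d4 mean was -0.49, against -0.24 and -0.10 in replicates 1 and 2.

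The transcription factors of adipogenesis split. Of 27 tested 10 fell and 6 rose, where 7.32% of all genes fell and 11.7% rose. In session 3 alone 10 fell and 3 rose. The members named next are ones that fell or did not pass, and the 6 that rose are not described with them. Cebpb and Cebpd, the early C/EBP factors, fell, Pparg fell to the floor, and Cebpa did not pass. Klf5 and Klf9, zinc finger factors that promote adipogenesis, fell as well.

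Cebpb read from 843 to 1792 at d4 (median 1473) and 463, 390.2 and 593 at d10 (log2 difference -1.54 ± 0.19, adjusted p = 9.5e-09). Cebpd read from 918 to 1944 at d4 (median 1454) and 403, 409.5 and 557 at d10 (log2 difference -1.66 ± 0.18, adjusted p = 4.9e-10). Neither had an overlap, and within session 3 the falls were -1.78 and -1.86. Pparg read from 73.5 to 96.3 at d4 and 24.9, 28.6 and 17.2 at d10, all under the floor, so it was at least 1.55-fold lower (adjusted p = 0.0043). With the floor at the 40th percentile both days were at the floor and no difference was left. Cebpa, the late C/EBP factor of fat cells, read from 97.2 to 192 at d4 (median 119.8) and 101, 167 and 115 at d10, with full overlap (log2 difference -0.08 ± 0.20, adjusted p = 0.87; 0.22 within session 3). Klf5 read from 169.6 to 433 at d4 (median 334) and 59.3, 73.7 and 60.3 at d10 (log2 difference -2.15 ± 0.18; -2.51 within session 3). Klf9 fell by a log2 of 1.10 ± 0.11 (-1.11 within session 3) to a narrow d10 range of 282 to 295, and its second probe set fell alike (-1.12).

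Some genes of mitochondrial fuel use fell and 1 rose. Among 28 fatty acid oxidation and peroxisome genes 8 fell and 1 rose, the carnitine transferase Cpt1a (median log2 difference of the list -0.13), of 30 of the citrate cycle and branched-chain amino acid breakdown 9 fell (-0.28), and of 43 of the respiratory chain and ATP synthase 7 fell (-0.18), where 7.32% of all genes fell. Within session 3 the falls numbered 5, 5 and 4, where 5.48% of all genes fell. With quantile scaling 16 of the respiratory genes fell, and with session as a block 14 of the citrate cycle genes. Array d10 replicate 2 was the lowest of the 3 in 36 of the 43 respiratory genes, and without it 3 of them fell. This was not particular to that list. Replicate 2 was also the lowest in 28 of 37 lysosome genes and 22 of 33 actin genes, but in only 4 of 24 lipid droplet and synthesis genes. The citrate cycle count was 5 without replicate 2 or without replicate 3.

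Acadm, the acyl-CoA dehydrogenase for medium chains, read from 2130 to 3183 at d4 (median 2593) and 2323, 1783 and 1754 at d10, with overlap in replicate 1 (log2 difference -0.47 ± 0.12, adjusted p = 0.004; -0.60 within session 3). Leaving out replicate 3 ended that call. Acaa2, the last enzyme of that mitochondrial spiral, lay at 1808, 1344 and 1175 at d10 below a d4 range of 2004 to 2444 (log2 difference -0.62 ± 0.14, adjusted p = 0.00067; -0.62 within session 3). Pdk4, the kinase that shuts pyruvate out of the citrate cycle, fell more, from a d4 range of 412 to 684 (median 616) to 239, 226 and 189 (log2 difference -1.41 ± 0.22; -1.49 within session 3). Idh2, the mitochondrial NADP isocitrate dehydrogenase (-0.73 ± 0.18; -0.91 within session 3), and Pdhb, a subunit of pyruvate dehydrogenase (-0.72 ± 0.19; -0.89 within session 3), each passed with 1 d10 array inside the d4 range. Cycs, cytochrome c, read from 741 to 1374 at d4 (median 1136) and 466, 364 and 389.7 at d10 (log2 difference -1.35 ± 0.19, adjusted p = 1.3e-07; -1.63 within session 3), the largest fall among the respiratory genes. Uqcrq, a subunit of complex III, fell by a log2 of 0.71 ± 0.16 (-0.80 within session 3). Mgst3 and Gsto1, glutathione enzymes, fell by 1.30 ± 0.17 (-1.46 within session 3) and 1.12 ± 0.17 (-1.18 within session 3), within a list of antioxidant genes in which 10 of 37 fell and 8 rose (7.32% and 11.7% of all genes).

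**Figure D3:**
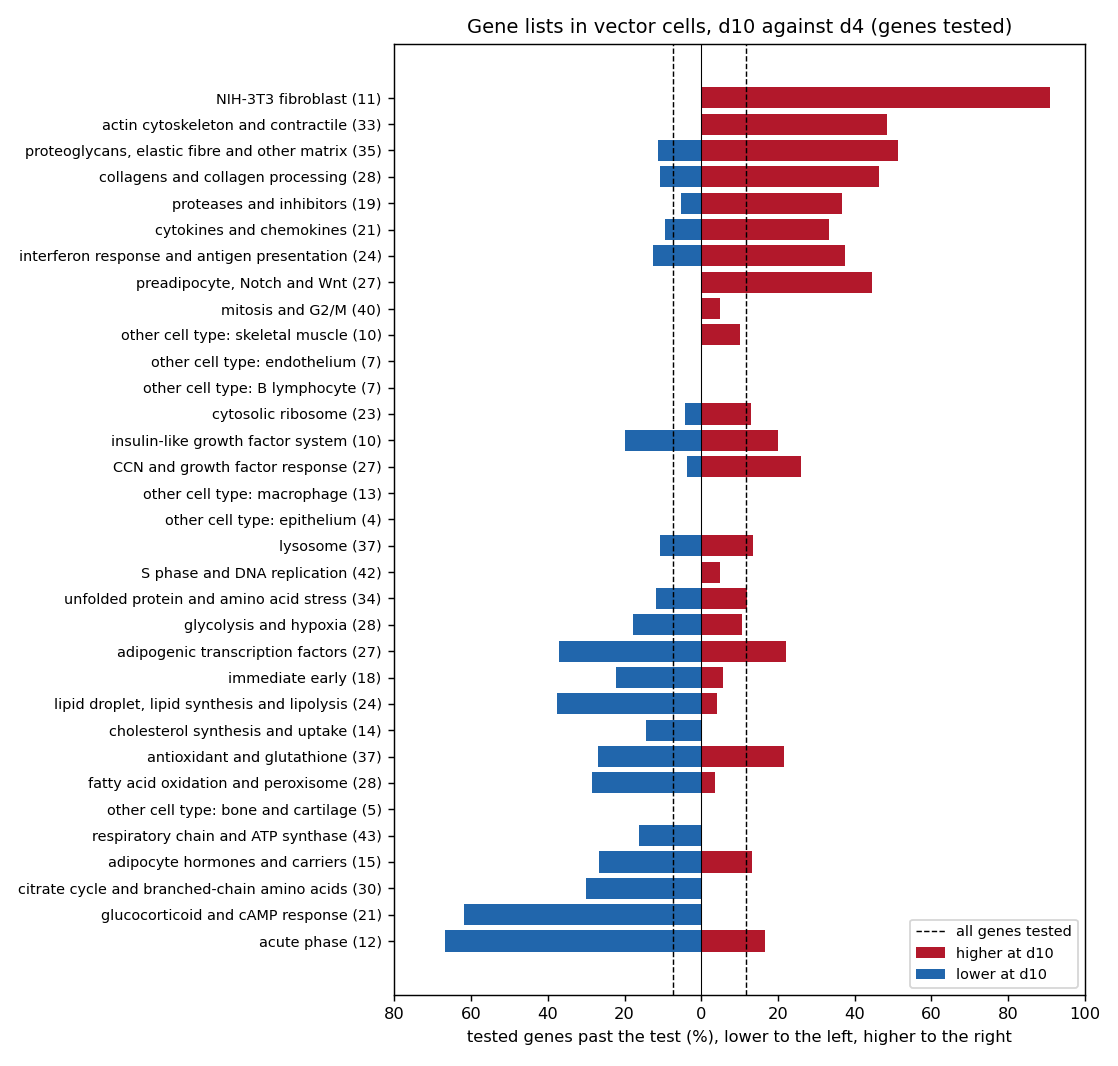
Share of the tested genes of each list that passed the test in vector cells at d10 against d4, higher to the right and lower to the left, ordered by the list's median log2 difference; the number of tested genes is in brackets, and the brown fat list of 3 genes is left out. Dashed lines mark the shares over all 5766 genes, 11.7% higher and 7.32% lower, and the acute phase and glucocorticoid lists reach 66.7% and 61.9% lower.

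Many matrix genes rose. Of 35 tested proteoglycans, elastic fibre and other matrix genes 18 rose and 4 fell (median log2 difference 0.37), and of 28 collagens and collagen enzymes 13 rose and 3 fell (0.33), where 11.7% of all genes rose. Within session 3, 14 and 11 of them rose. The fibrillar collagens Col1a1, Col1a2 and Col3a1 rose while the basement membrane collagen Col4a1 fell.

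Lum, lumican, which orders collagen fibrils, read from 309.9 to 848 at d4 (median 401) and 3316, 3571 and 2299 at d10, a 6.26-fold rise with no overlap (log2 difference 2.65 ± 0.29, adjusted p = 6.1e-10; 2.09 within session 3). Eln, elastin, read from 278 to 414 at d4 (median 369) and 1890, 1343 and 3320 at d10. All 3 were above every d4 array although replicate 3 stood apart from the other 2 (log2 difference 2.54 ± 0.18, adjusted p = 6e-16; 2.77 within session 3), and a second Eln probe set rose less (1.08). Postn, periostin, an adhesion protein of connective tissue, read from 974 to 2251 at d4 (median 1264) and 5535, 5539 and 6294 at d10 (log2 difference 2.14 ± 0.17; 1.88 within session 3). Nid2, a basement membrane linker, rose by 1.63 ± 0.26 over all arrays and by 0.95 within session 3.

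Col1a1 and Col1a2, the chains of type I collagen, rose by 1.08 ± 0.22 (1.18 within session 3) and 1.01 ± 0.10 (0.93 within session 3). Col1a1 read from 2264 to 3802 at d4 (median 2591) and 6406, 5441 and 5939 at d10, without overlap, and a second Col1a2 probe set did not pass (-0.11). Col3a1, the chain of type III collagen, rose by 1.15 ± 0.10 (1.08 within session 3), and its 2 other probe sets rose by 1.46 and 2.34. Col4a1, a chain of the type IV collagen of basement membranes, read from 2090 to 4186 at d4 (median 2562) and 772, 619 and 683 at d10, so here every d10 array was below every d4 array (log2 difference -2.03 ± 0.26, adjusted p = 4.3e-08; -1.65 within session 3). Among proteases and inhibitors 7 of 19 rose and 1 fell (11.7% and 7.32% of all genes). Timp3, an inhibitor of metalloproteinases that is held in the matrix, read from 179 to 805 at d4 (median 260.3) and 2237, 1932 and 2511 at d10, with d4 replicate 7 nearest to d10 (log2 difference 2.83 ± 0.27; 2.17 within session 3). Plau, the plasminogen activator urokinase, rose by 1.25 ± 0.20 over all arrays and by 0.71 within session 3. Serpinf1, the secreted serpin PEDF, rose by 1.06 ± 0.20 and by 0.52 within session 3, while its second probe set did not pass (-0.07).

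Of 33 tested genes of the contractile actin cytoskeleton 16 rose (median log2 difference 0.38) and none fell, where 11.7% of all genes rose. Within session 3, 11 rose, where 6.02% of all genes did, and 10 rose in a fit of only the groups compared. Acta2, the smooth muscle actin of contractile fibroblasts, read from 109 to 397 at d4 (median 118) and 1368, 1246 and 1075 at d10. The d4 arrays of sessions 1 and 2 read 109 to 118 and those of session 3 324 to 397, so the rise was 2.72 ± 0.40 over all arrays (adjusted p = 5.2e-07), 1.76 within session 3 and 1.95 in the session block fit. Tpm1, a tropomyosin that lines actin filaments, read from 545 to 1203 at d4 (median 743) and 3621, 2914 and 3237 at d10 (log2 difference 2.04 ± 0.17; 1.62 within session 3). Myl9, the regulatory light chain of smooth muscle myosin, read from 68.3 to 118 at d4 (median 97.2) and 397, 371 and 416 at d10 (log2 difference 2.04 ± 0.17, adjusted p = 1.8e-13; 2.03 within session 3). Tagln, the actin-binding protein transgelin, rose by 1.41 ± 0.17 (1.40 within session 3). Gas2, a growth arrest gene whose protein binds microfilaments, was under the floor on 6 of 7 d4 arrays and read 384, 343 and 338 at d10 (log2 difference 2.70 ± 0.13, adjusted p = 2.3e-22; 2.69 within session 3), while its second probe set rose by 0.58. Marcks, a substrate of protein kinase C that binds actin, read from 436 to 1189 at d4 (median 578) and 3580, 3111 and 3821 at d10 (log2 difference 2.46 ± 0.17; 1.98 within session 3).

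The CArG letters were found in the 250 bases before the start of 4 of the 13 risen actin genes with a promoter (Actg1, Cnn2, Myl9 and Vcl, 30.8%), in 2.22% of the promoters of all genes that rose and in 1.73% of those of all tested genes. The Myl9 promoter (chr2:156775214-156775463, plus strand, letters 161 bases before the start) is shown because Myl9 rose most among these 4.
Myl9: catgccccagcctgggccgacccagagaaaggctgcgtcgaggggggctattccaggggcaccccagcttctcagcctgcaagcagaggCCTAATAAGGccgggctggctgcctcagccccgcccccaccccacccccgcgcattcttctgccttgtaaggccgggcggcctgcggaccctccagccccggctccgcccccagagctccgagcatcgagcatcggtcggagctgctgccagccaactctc
The other 9 promoters held no such letters in this window.

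Of 27 preadipocyte, Notch and Wnt genes 12 rose and none fell (median log2 difference 0.16; 10 rose within session 3), where 11.7% of all genes rose. With quantile scaling 11 rose and 1 fell. Dlk1, the preadipocyte protein Pref-1, an inhibitor of adipogenesis, read from 3320 to 6138 at d4 (median 5359) and 9923, 9768 and 10610 at d10, a 2.00-fold rise without overlap (log2 difference 1.00 ± 0.14, adjusted p = 4.7e-07; 0.79 within session 3). Sfrp2 and Sfrp1, secreted proteins that bind Wnt ligands, rose by 1.78 ± 0.11 (1.72 within session 3) and 1.52 ± 0.33 (1.11 within session 3). Fzd1, a Wnt receptor, read from 59.0 to 92.1 at d4 (median 76.8) and 268, 203 and 232 at d10 (log2 difference 1.62 ± 0.15; 1.39 within session 3). Prrx1, a homeobox factor of mesenchymal cells, rose by 1.87 ± 0.30 and by 1.35 within session 3. Crabp1, which binds retinoic acid in the cytosol, had the largest rise among the tested genes without overlap, from a d4 range of 71.4 to 135 (median 96.7) to 679.9, 616 and 937 (log2 difference 2.93 ± 0.15, adjusted p = 5.7e-21; 2.71 within session 3). Maged2, a MAGE family gene, rose by 2.60 ± 0.21 (2.14 within session 3). Of 11 fibroblast markers 10 rose (median 0.71; 7 rose within session 3), among them the collagen-binding protein Sparc (1.15 ± 0.21, and 0.77 within session 3), and their summed intensity ran from 18980 to 25860 at d4 and from 34650 to 40140 at d10. These markers overlap with the collagen list.

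Secreted signals rose in part. Of 21 cytokines and chemokines 7 rose and 2 fell, and of 24 interferon response and antigen presentation genes 9 rose and 3 fell, where 11.7% of all genes rose and 7.32% fell. Only 5 and 3 of them rose within session 3 (6.02% of all genes), and the interferon rises numbered 4 without d10 replicate 3 and 5 in a fit of only the groups compared. Of 23 macrophage markers 13 were tested and none passed; their part in these counts was not tested. Their summed intensity ran from 2488 to 3502 at d4 and from 2712 to 3438 at d10, with 13 of the 23 above the pooled median on at least 1 d4 array. At d10 these were 9 (Cd68, Cd14, Fcgr3, Fcer1g, Cd52, Laptm5, Mpeg1, C1qa and C1qc), and Ptprc, Itgam, Cd53, Cybb and Mrc1 were at the floor on every d10 array. The d4 count was taken over 7 arrays and the d10 count over 3, so these counts are not comparable. Cxcl5, a chemokine for neutrophils, was under the floor on 6 of 7 d4 arrays and read 352, 349.9 and 308 at d10 (log2 difference 2.53 ± 0.14, adjusted p = 2.4e-19; 2.42 within session 3). Ccl2, a chemokine for monocytes, read from 74.9 to 224 at d4 (median 119.6) and 284, 257 and 403 at d10 (1.35 ± 0.28; 1.06 within session 3). Cxcl12, a chemokine that fibroblasts of many tissues make, rose by 0.82 ± 0.19 over all arrays, but by 0.40 within session 3, where it did not pass (adjusted p = 0.16). Its 2 other probe sets rose by 0.85 and 1.65 over all arrays.

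Fgf7, a fibroblast growth factor for epithelia, was under the floor on 4 of 7 d4 arrays and read 253, 236 and 262 at d10 (log2 difference 1.91 ± 0.18; 1.52 within session 3). Gbp2, an interferon-induced GTPase, rose by 1.06 ± 0.09 (0.94 within session 3). Igf2, the fetal insulin-like growth factor, read from 1990 to 8782 at d4 (median 2660) and 11970, 11180 and 12310 at d10. Its d4 arrays fell apart by session, with 1990 to 2660 in sessions 1 and 2 and 7606 to 8782 in session 3, so the rise of 1.59 ± 0.35 over all arrays (adjusted p = 0.00047) was 0.56 within session 3 (adjusted p = 0.0098) and 0.81 in the session block fit. Clec3b, tetranectin, which binds plasminogen, rose by 1.11 ± 0.19, with overlap, and did not pass within session 3 (0.97, adjusted p = 0.063).

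**Figure D4:**
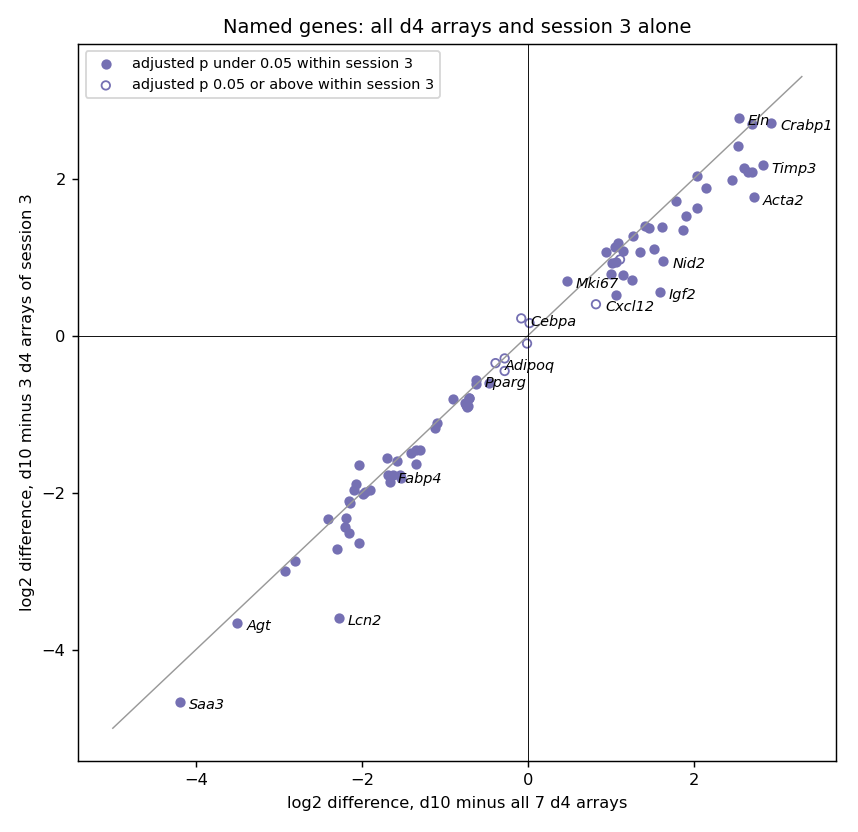
Log2 difference between d10 and d4 of the named genes over all 7 d4 arrays (horizontal axis) and against the 3 d4 arrays of session 3 (vertical axis), with filled points past the test within session 3 and the line of equal values in grey. Igf2, Nid2, Acta2 and Cxcl12 lie below the line among the rises, and Lcn2 lies farthest from it among the falls, -3.59 against -2.28.

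Few cell division genes passed the test. Of 42 S phase genes 2 rose and of 40 genes of mitosis 2 rose, below the share of all genes that rose (11.7%), and none fell. Pold1, the catalytic subunit of DNA polymerase delta, rose by 1.05 ± 0.09 (1.13 within session 3), and Stmn1, a microtubule destabiliser of dividing cells, by 0.94 ± 0.13 (1.06 within session 3). Mki67, the proliferation marker Ki-67, read from 58.8 to 101 at d4 (median 92.3) and 138, 110.5 and 103 at d10, just above the d4 range (log2 difference 0.47 ± 0.19, adjusted p = 0.093). Within session 3 it passed (0.70, adjusted p = 0.028), as its second probe set did over all arrays (0.64). Of 37 lysosome genes 5 rose and 4 fell, of 23 of the cytosolic ribosome 3 rose and 1 fell, and of 34 of the unfolded protein and amino acid response 4 rose and 4 fell, where 7.32% of all genes fell. The balance turned with quantile scaling, where 5 rose and 6 fell, 1 rose and 7 fell, and 3 rose and 8 fell, against 625 higher and 558 lower of all 5766 genes. Of 14 cholesterol synthesis genes 2 fell, and Idi1, an isomerase of that pathway, did not pass (log2 difference -0.01 ± 0.20; -0.10 within session 3). Of 28 glycolysis and hypoxia genes 5 fell and 3 rose, and Bnip3, a mitochondrial protein induced by hypoxia, fell from a d4 median of 169 to 76.3, 78.5 and 62.6.

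Levels at d0 and d2 place these changes in the course of the vector cells. They are given as values only, since no d0 or d2 array was in the session of the d10 arrays. Saa3 started from a mean intensity of 75.4 ± 10.8 (SD, n = 4), reached 8635 ± 640.1 at d2, and was at 3473 ± 1124 (n = 7) on d4 and 182 ± 10.3 (n = 3) on d10, so its peak was at d2. Fkbp5 had its highest mean at d4, 2429 ± 262, after 446 ± 18.9 at d0 and 1869 ± 197 at d2, and before 346 ± 34.2 at d10. Cebpd went from 749 ± 234 at d0 through 1996 ± 197 at d2 and 1458 ± 309 at d4 to 456 ± 86.8 at d10. At d10 the means of Fkbp5 and Cebpd were below those of d0 and that of Saa3 above.

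Crabp1 ran the other way, from 1153 ± 172 at d0 down to 66.2 ± 11.2 at d2 and 97.7 ± 19.9 on d4, then up to 744 ± 170.0 on d10, a mean between those of d4 and d0. Col1a1 was at 6331 ± 1299 at d0, 2303 ± 420.3 at d2 and 5929 ± 483 at d10. Not every d10 value resembled d0. Adipoq had a mean of 37.9 ± 12.8 at d0 and 879.6 ± 534 at d10, Eln of 261 ± 28.7 and 2184 ± 1021, and Acta2 of 335 ± 136 and 1229 ± 147.

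**Figure D5:**
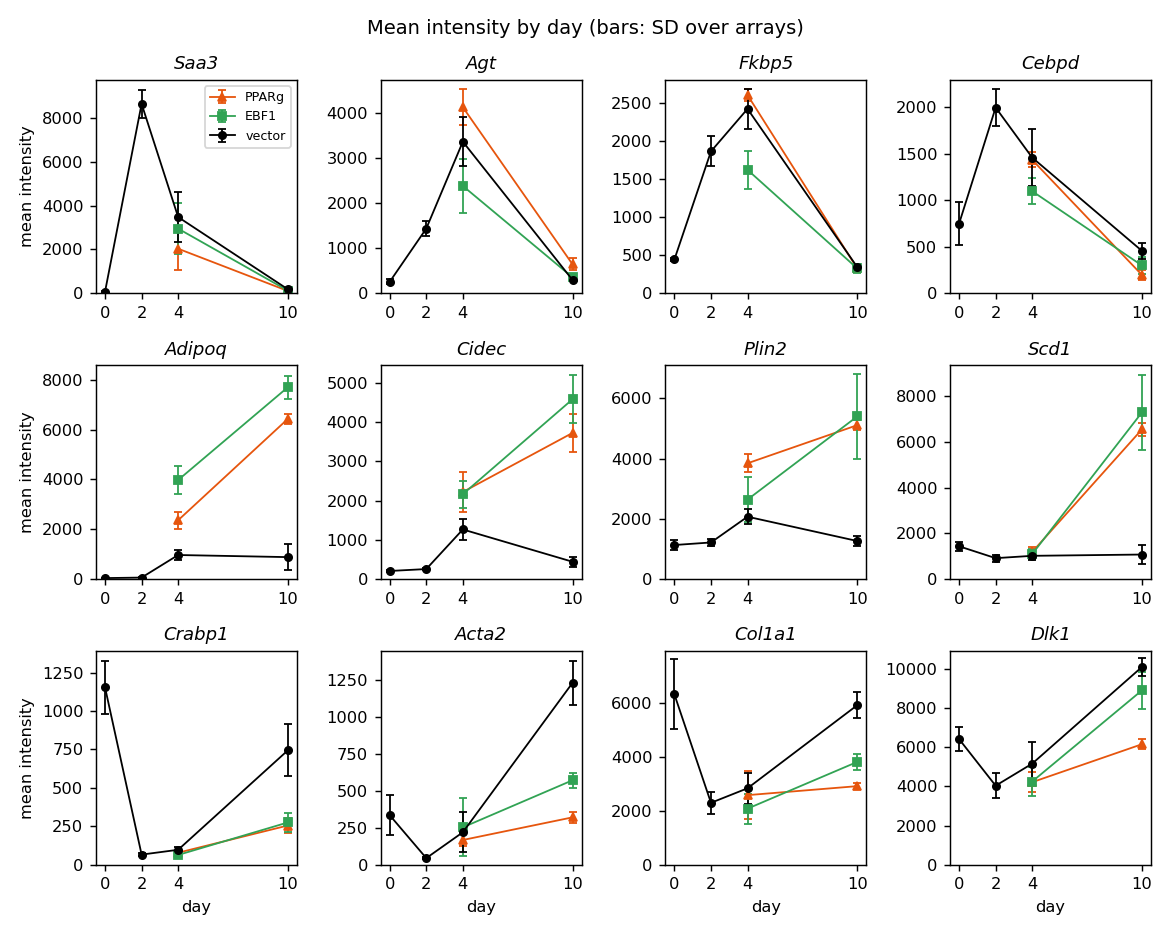
Mean intensity of 12 genes by day in vector cells (black, d0 to d10) and in PPARg and EBF1 cells (orange and green, d4 and d10); bars are the SD over arrays. Saa3, Agt, Fkbp5 and Cebpd fall from d4 to d10 in all 3 kinds of cells, while Adipoq, Cidec, Plin2 and Scd1 rise in PPARg and EBF1 cells but not in vector cells.

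Cells with PPARg or EBF1 over the same days show which of these changes differed from those of vector cells. The difference between the vector change and the PPARg change passed for 878 of 7619 probe sets (11.5%), 564 with the larger value in vector (7.4%) and 314 with the smaller (4.12%). Of all genes 11.8% passed. For EBF1 it passed for 429 (5.63%; 5.69% of genes), 104 larger (1.37%) and 325 smaller (4.27%), and with quantile scaling the share of larger values among those past the test went from 24.2% to 34.5%. Both differences use the same 10 vector arrays. Within session 3 they passed for 158 and 261 probe sets. Of a set of 30 genes 22 passed against PPARg and 23 against EBF1 over all arrays, 14 and 17 of these also within session 3. The set includes some of the largest differences past this test, and Agt, compared above, is outside it. All 22 and 23 kept their sign within session 3, but that fit reuses every d10 array, so the agreement is no independent support.

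Many fat storage genes rose over the same days with both factors. Among lipid droplet and lipid synthesis genes 15 of 24 rose and 2 fell with PPARg (all genes 7.56% and 10.8%) and 17 rose with EBF1 (all genes 9.64% higher, 5.81% lower), where vector cells had 1 rise and 9 falls. The vector change was smaller than the PPARg change for 16 of the 24 (4.2% of all genes) and smaller than the EBF1 change for 19 (4.39%), and larger for none. In fatty acid oxidation 17 and 24 of 28 rose, against 1 in vector cells. Cidec went from a mean of 2219 to 3725 with PPARg (log2 change 0.77) and from 2163 to 4583 with EBF1 (1.09), against a change of -1.53 with vector (adjusted p of the differences 1.3e-09 and 2.3e-10). Plin2 changed by 0.41 with PPARg and 1.06 with EBF1 against -0.71 with vector (adjusted p of the differences 0.00023 and 2.4e-07). For Scd1 the changes were 2.48 and 2.75 against 0.02 (adjusted p 1e-09 and 2.8e-10). Adipoq changed by 1.46 with PPARg and 0.97 with EBF1 against -0.39 with vector, differences that passed over all arrays (adjusted p = 5.1e-05 and 0.0088) but not within session 3 (adjusted p = 0.13 and 0.23). Car3, a carbonic anhydrase of fat and muscle that was under the floor on all 7 vector d4 arrays, rose at least 2.41-fold with vector, to 128, 132 and 134, a call lost with the floor at the 40th percentile, and its mean went from 44.5 to 1484 with PPARg and from 50.4 to 461 with EBF1. Pdk4 fell with vector (-1.41) and PPARg (-0.84) and rose with EBF1 (1.71).

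Of the 21 glucocorticoid and cAMP response genes 13 fell and 1 rose with PPARg and 11 fell with EBF1, where 10.8% and 5.81% of all genes fell, and the difference from the vector change passed for 4 of the 21 against each. Saa3 changed by -4.10 with PPARg and -4.53 with EBF1, and the differences from the vector change of -4.19 did not pass (-0.09 ± 0.41 and 0.34 ± 0.45). Fkbp5 changed by -3.00 and -2.31 against -2.81, where the difference from EBF1 passed (-0.50 ± 0.15, adjusted p = 0.039). Dusp1 fell with vector and PPARg (-1.96 and -1.50) and did not pass with EBF1 (0.03). Cebpd fell less with vector (-1.66) than with PPARg (-2.89, adjusted p of the difference 0.00082), but within session 3 the difference did not pass (1.07, adjusted p = 0.054). Cebpb changed by -1.54 with vector and -0.38 with EBF1, where it did not pass (adjusted p of the difference 0.008).

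Some rises were larger in vector cells. Of the actin list 15 of 33 genes had a larger change with vector than with PPARg and 2 than with EBF1, where 7.61% and 1.3% of all genes did. Tpm1 rose by 0.83 with PPARg and 1.58 with EBF1 against 2.04 with vector (adjusted p of the differences 0.00036 and 0.44). Acta2 changed by 0.97 with PPARg against 2.72, a difference that passed over all arrays (adjusted p = 0.032) but not within session 3 (1.09, adjusted p = 0.12). Cxcl5 changed by 0.15 with PPARg and 1.67 with EBF1 against 2.53 with vector (adjusted p = 3.2e-12 and 0.0088), and within session 3 the difference from EBF1 did not pass (0.89, adjusted p = 0.055). Lum and Eln, in contrast, rose by 2.51 and 2.33 with PPARg and by 2.03 and 1.79 with EBF1, and no difference from vector passed, with differences of 0.13 ± 0.41 and 0.21 ± 0.25 for PPARg and 0.61 ± 0.45 and 0.75 ± 0.27 for EBF1. Mki67 changed by 0.47 with vector and -0.79 with EBF1 (adjusted p of the difference 0.0048), and the EBF1 value rests on 2 arrays.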

How the data were processed

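RNA of transduced NIH-3T3 cells was hybridised to 53 arrays, per the labels. The authors deposited 1 table of linear intensities with 12488 probe sets; its summarisation algorithm, scaling and software are not given in the sources used here. They also deposited experiment files with settings of array processing (unit: other). Dates in their comment field gave the sessions, and their scan dates gave the scan days within session 3. Dates are not printed. Array signals carry no depth, so the number of arrays limits the precision.

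Groups were taken from the titles. Intensities were floored at the pooled 20th percentile (54.5) and taken to log2, and 7619 probe sets above the pooled median (158) on at least 2 arrays were fitted in limma 3.58.1 (R 4.3.3) with a mean for each of 12 groups, with eBayes and its trend option, and p values were adjusted after Benjamini and Hochberg, with a threshold of 0.05. Every adjusted p comes from this limma test. A ± after a log2 difference is the fit's standard error. The median log2 difference over all tested probe sets was 0.01 and -0.02 after quantile scaling, so no shift was subtracted. A gene was read by its tested probe set with the highest mean (5766 genes, 923 with more than 1). Symbols came from GEO's platform table: 10833 probe sets had 1 symbol, 396 several and 1193 none, and 10817 of the first were found in RefSeq by Entrez identifier. A gene under the floor on every array of a group is given as a bound, the mean of the measured group over the floor.

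Named were the 12 largest rises and 12 largest falls without overlap, the 4 largest changes per list, the 5 largest differences of change in each direction, and a fixed panel; not every gene so allowed is printed. Gene lists, panel and comparisons were chosen with earlier results of these data known, and the motif search and the blocks for scan day were added after seeing the data. Whether replicate numbers pair d4 with d10 arrays was checked by the correlation of deviations from the group means. It was -0.68, -0.38 and 0.20 for numbers 1, 2 and 3, so no pairing by number was seen. Arrays of different numbers correlated more (0.82 for d10 replicate 2 and d4 replicate 1), so the check cannot decide whether arrays share cultures. The fits were tested on simulated data. Figures were drawn with matplotlib 3.10.9 (Python 3.11.15).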

Additional observations from a re-analysis of the deposited data

Results flagged for a closer look

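In 2 of 89 named genes 1 of the 7 vector d4 arrays stood apart from the others by Dixon's measure, which chance alone gives in about 1 of 20 groups. Replicate 2 was the lowest for Myl9 (68.3) and replicate 1 the lowest for Mgst3 (1683). The other 4 named genes had d4 arrays under the floor, where values have no order, and were not tested.

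For 22 of a set of 30 genes the vector change from d4 to d10 differed from the PPARg change by the test of the difference itself, where 11.8% of all genes did. The set includes some of the largest differences past this test, so its counts do not measure how common such differences are. The value, vector change minus PPARg change in log2, was negative for most of them, among these many genes of fat storage and fuel use. It was -3.43 for Car3, -2.46 for Scd1, -2.45 for Ephx2, -2.30 for Cidec, -2.13 for Fabp4, -2.01 for Aldh1a7, -1.85 for Adipoq, -1.71 for Fabp5, -1.56 for Plin4, -1.54 for Cycs, -1.53 for Acaa2, -1.13 for Plin2, -0.90 for Acadm and -0.78 for Lpl. It was positive for 8 genes, with 2.38 for Cxcl5, 1.76 for Acta2, 1.36 for Nid2, 1.23 for Cebpd, 1.23 for Crabp1, 1.20 for Tpm1, 1.16 for Gas2 and 0.57 for Stmn1. Car3 was under the floor on all 7 vector d4 and all 7 PPARg d4 arrays, so its value rests on the d10 arrays alone.

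Against the EBF1 change 23 of the 30 differed, where 5.69% of all genes did. The value was -3.28 for Ephx2, -3.12 for Pdk4, -2.98 for Plin4, -2.87 for Aldh1a7, -2.73 for Scd1, -2.62 for Cidec, -2.25 for Fabp4, -1.99 for Dusp1, -1.87 for Acaa2, -1.77 for Plin2, -1.66 for Cycs and -1.54 for Car3. Smaller negative values were -1.48 for Fabp5, -1.36 for Adipoq, -1.21 for Acadm, -1.20 for Lpl, -1.15 for Cebpb and -0.50 for Fkbp5. Positive values were 1.26 for Mki67, 0.98 for Stmn1, 0.93 for Gas2, 0.86 for Cxcl5 and 0.83 for Crabp1. Both sets of differences use the same vector arrays. Agt, which is outside the 30, also differed from both changes (-0.80 against PPARg and -0.79 against EBF1).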

How the results depend on the processing

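Of 93 named genes 86 passed the test and 72 of these passed under every alternative. The other 14 lost the call under at least 1. They were Acaa2, Echs1, Id1, Mgp, Pdhb, Scp2 and Pparg with the replicate block, Acadm with the replicate block or without d10 replicate 3, Idh2 with the replicate block or without d10 replicate 2, Car3 with the higher floor, Clec3b and Cxcl12 within session 3, Sparc on the first scan day of session 3, and Id2 under several. The count of 1399 probe sets was 884 with only the groups compared, 849 within session 3, 917 with scan day as a block there, 737 on its first scan day and 523 with the replicate block, and ran from 979 (without d10 replicate 1) to 1551 as single arrays were left out. The PPARg difference (878) was 158 within session 3, 384 with scan day as a block and 533 (without vector d10 replicate 1) to 1135 with single arrays left out. The EBF1 difference (429) was 241 with only the groups compared, 261 within session 3, 256 with the replicate block and 136 (without EBF1 d10 replicate 1) to 491 with single arrays left out. The PPARg change itself (1389) was 841 within session 3, 898 with scan day, 288 with the replicate block and 910 to 1525 with arrays left out. The EBF1 change (1149) was 760 with only the groups compared, 762 within session 3, 672 with scan day, 352 with the replicate block and 535 to 1205 with arrays left out. Fits of few groups or arrays estimate the spread from fewer arrays, and whether replicate numbers pair these arrays is not settled. Other causes were not tested. On the first scan day 9 actin genes (from 16), 7 collagen genes (from 13), 5 fibroblast markers (from 10) and 2 interferon genes (from 9) rose, and with the replicate block 1 fatty acid oxidation gene (from 8), 0 citrate cycle genes (from 9), 2 respiratory genes (from 7) and 5 transcription factors (from 10) fell while 7 preadipocyte genes (from 12), 4 proteases and inhibitors (from 7) and 4 interferon genes (from 9) rose. Signs turned for Adipoq (0.27 on the first scan day, -0.80 to 0.31 with arrays left out), Cebpa (0.02 with session as a block, 0.22 within session 3 and with scan day, 0.32 on the first day, -0.29 to 0.08 with arrays left out), Scd1 (-0.02 with quantile scaling, -0.09 with the replicate block and with probe sets averaged, -0.23 to 0.34 with arrays left out), Ephx2 (-0.58 to 0.26 with arrays left out), Idi1 (0.07 on the first day, -0.22 to 0.13 with arrays left out) and Pparg (0.00 with the higher floor), none but Pparg past the test. Genes near the floor, such as Gas2, Cxcl5, Fgf7 and Pparg, have understated differences.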

Other observations

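A further set of genes was picked after its values were seen. Ebf1, the endogenous gene of the factor that the other cells received, read from 160.4 to 235 on the vector d4 arrays (median 202) and 329, 312 and 379 at d10. The d10 arrays lay above all d4 arrays (log2 difference 0.78 ± 0.17, limma adjusted p = 0.00047; 0.73 within session 3). The Id genes, which encode inhibitors of basic helix-loop-helix factors, went different ways. Id1 fell (-0.92 ± 0.22), Id4 rose (1.06 ± 0.20; 0.70 within session 3), and Id2 rose over all arrays (0.79 ± 0.24) but did not pass within session 3 (0.29, adjusted p = 0.57).

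Both main triglyceride lipases fell. Pnpla2, the enzyme of the first step, read from 2648 to 3354 at d4 (median 2952) and 1341, 1406 and 1211 at d10 (log2 difference -1.17 ± 0.10). Lipe, hormone-sensitive lipase, read from 499.8 to 1081 at d4 (median 818) and 422, 305 and 259.9 at d10 (-1.26 ± 0.17; -1.46 within session 3). Mgp, a matrix protein that inhibits calcification, fell while most changed matrix genes rose, with -1.27 ± 0.23 over all arrays and -2.00 within session 3. Mt1, the metallothionein whose promoter is printed above, read from 5805 to 7385 at d4 (median 7002) and 2415, 1872 and 2259 at d10, with no overlap.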
